A study of Homo sapiens with 4 samples.

Results

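The mRNAs of 10 secreted cytokines and chemokines were examined in the renal carcinoma line 786-O with and without restored VHL. The members are a list of gene symbols, and they are the CXC chemokines CXCL1, CXCL2, CXCL3 and CXCL8, the CC chemokines CCL2 and CCL20, the cytokines IL6, LIF and IL11, which signal through the shared receptor chain gp130, and the macrophage growth factor CSF1. Of these, 9 had a row among the 12912 genes of the count table, and all 9 passed the filter on low counts. CCL20 was not analysed here.

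786-O derives from a clear cell renal cell carcinoma and carries no functional VHL. 786-O-Ctrl is this VHL-null line, and 786-O-VHL is the same line after transduction with a retroviral vector for HA-tagged VHL. Whether 786-O-Ctrl carried an empty vector is not stated in the sources used here. Differences from the vector or between the sublines cannot be told apart from an effect of VHL. Per the labels, both were the triple-reporter versions, which express a fusion of thymidine kinase, GFP and luciferase, and both were grown in RPMI1640 with serum. The reporter background and the culture medium were therefore shared by both groups, and the comparison was of 2 RNA-seq libraries of each, with no label saying whether these came from separate cultures, so p-values measure only the spread between these libraries.

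VHL is the substrate receptor of a ubiquitin ligase that marks hydroxylated HIFα subunits for degradation. Chemokines are small secreted proteins that attract leukocytes through G protein-coupled receptors. CXCL1, CXCL2 and CXCL3 are close paralogs that, like CXCL8, attract neutrophils, while CCL2 attracts monocytes. IL6, LIF and IL11 each bind a receptor complex that contains gp130, encoded by IL6ST, and activate JAK kinases and STAT3. In many epithelial cells these genes are induced by inflammatory signals through NF-κB and AP-1, and their mRNAs are often short-lived.

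The libraries held between 2807779 and 22141263 counts, with 786-O-VHL replicate 1 the shallowest. Both 786-O-Ctrl columns carried the same replicate number, and they are called here the deeper and the shallower control library. Levels are counts per 1000000 (CPM), that is counts divided by the effective library size, the total adjusted by TMM (a trimmed mean of log ratios that corrects for library composition). In 786-O-VHL replicate 1, 3 counts equal 1.02 CPM, against 0.142 to 0.199 CPM in the other libraries. VHL itself was read at 42.9 and 43.9 CPM in 786-O-Ctrl and at 178 and 163 CPM in 786-O-VHL, with a log2 fold change of 1.96 (SE 0.0706, FDR = 2.86e-19 by edgeR's quasi-likelihood test with Benjamini-Hochberg adjustment). Of the renal line markers, 9 of 10 were in the table, PAX8 and PAX2 among them. The summed level of the 9 was 3519 to 3535 CPM in 786-O-Ctrl and 2121 to 2132 CPM in 786-O-VHL. VIM was the largest part of that sum, with means of 1684 and 730 CPM. The means of PAX8 were 274 and 152 CPM, and those of PAX2 were 38.7 and 31.2 CPM. Those of MME were 34.9 and 1.68 CPM, the largest change among these markers, while those of ANPEP were 189.0 and 189.4 CPM. Of 12 leukocyte markers, 10 had no row, PTPRC (CD45) included, and the other two, CD14 and CSF1R, summed to 13.7 to 14.2 CPM in 786-O-Ctrl and 2.67 to 4.41 CPM in 786-O-VHL. Of 10 fibroblast and endothelial markers, 5 were in the table, with sums of 11.3 to 12.5 CPM and 15.3 to 15.9 CPM.

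The proximal promoters of 6 members are shown because 3 of them (CXCL1, CXCL2 and CXCL3) are near copies, although CXCL1 was lower and CXCL2 higher in 786-O-VHL. Each run is the 160 bases before the RefSeq transcription start, read 5′ to 3′ along the gene (GRCh38.p14, a later build than the hg19 of the counts). Capitals mark matches on either strand to the NF-κB-type letters GGNNTTTCC or to the AP-1 letters TGANTCA, and the motifs were chosen with these sequences known.
CXCL1: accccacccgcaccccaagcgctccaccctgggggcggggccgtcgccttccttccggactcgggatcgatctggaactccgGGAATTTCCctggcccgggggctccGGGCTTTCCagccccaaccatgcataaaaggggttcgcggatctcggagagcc
CXCL2: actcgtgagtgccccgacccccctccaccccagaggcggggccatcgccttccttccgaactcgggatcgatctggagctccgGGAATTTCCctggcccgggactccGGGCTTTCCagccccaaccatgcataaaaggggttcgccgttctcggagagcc
CXCL3: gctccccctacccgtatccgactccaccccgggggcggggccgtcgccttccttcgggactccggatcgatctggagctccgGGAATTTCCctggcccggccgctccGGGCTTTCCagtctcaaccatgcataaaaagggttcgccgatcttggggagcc
CXCL8: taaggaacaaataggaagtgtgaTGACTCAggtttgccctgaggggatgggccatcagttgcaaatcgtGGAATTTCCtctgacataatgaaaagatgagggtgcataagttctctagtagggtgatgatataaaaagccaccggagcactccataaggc
IL6: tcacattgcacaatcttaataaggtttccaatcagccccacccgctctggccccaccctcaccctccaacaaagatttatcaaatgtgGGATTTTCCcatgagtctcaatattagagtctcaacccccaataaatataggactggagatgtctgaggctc
IL11: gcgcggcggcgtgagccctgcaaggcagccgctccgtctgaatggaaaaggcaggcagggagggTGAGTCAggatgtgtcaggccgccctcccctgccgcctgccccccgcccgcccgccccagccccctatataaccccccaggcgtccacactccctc
The windows are chr4:73869233-73869392 on the plus strand for CXCL1, chr4:74099196-74099355 on the minus strand for CXCL2 and chr4:74038690-74038849 on the minus strand for CXCL3. That of CXCL8 is chr4:73740409-73740568 on the plus strand, that of IL6 chr7:22727040-22727199 on the plus strand and that of IL11 chr19:55370464-55370623 on the minus strand.

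The CXCL1, CXCL2 and CXCL3 promoters were 83.2% to 85.8% identical to each other over this stretch and 42.5% to 44.5% identical to that of CXCL8. Each of the 3 held a pair of NF-κB-type matches, whose first bases lay 78 and 53 bases before the start in CXCL1 and CXCL3 and 77 and 53 bases before it in CXCL2. CXCL8 held 1 such match at 91 bases and an AP-1 match at 137 bases before the start, IL6 held 1 NF-κB-type match at 72 bases, and IL11 held an AP-1 match at 96 bases and no NF-κB-type match. The promoter of CCL20, which is not printed above, held 1 NF-κB-type match on the minus strand at 79 bases. In the 200 bases before the start of all 27305 RefSeq promoters, 4.5% held the NF-κB-type letters and 5.6% the AP-1 letters. The core letters of the hypoxia response element, ACGTG, stood in the 200 bases before the start of none of the 7 members whose promoters were matched, and in 15.5% of all promoters. The variant GCGTG stood before IL11 at 152 bases, on the minus strand before CCL20 at 60 bases, and in 27.6% of all promoters. A match is a string of letters and not a measured binding site, and no binding was measured here.

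CXCL8 and CCL2 were the members with the largest decreases in 786-O-VHL, and IL11 and CXCL2 were higher there. CXCL8, a neutrophil attractant, was 7.34-fold lower and CCL2, a monocyte attractant, 8.34-fold lower, whereas IL11 was 3.76-fold higher and CXCL2 2.18-fold higher. CXCL1, LIF and CSF1 were lower by smaller amounts, and CXCL3 and IL6 were not called. In these bulk libraries, fewer cells with an mRNA and less of it per cell cannot be told apart. In all, 7 of the 9 members tested passed FDR < 0.05, 2 of them higher and 5 lower, in a comparison in which 64.5% of all 12335 genes tested passed, 32.6% higher and 31.9% lower. A share of this size is near that of all genes and says nothing particular about the members. Past the stricter threshold of more than 4-fold with FDR < 0.01 stood CXCL8 and CCL2, both lower, against 4.46% of all genes in either direction, 1.54% lower and 2.92% higher. The libraries of the groups did not overlap for 7 of the 9 members, 5 lower and 2 higher, against 80.0% of all genes, 39.2% lower and 40.8% higher. The median log2 fold change of the 9 was −0.15, beside 0.02 over all genes tested. With 2 libraries a group, an exact two-sided permutation test of a single gene cannot give a p below 0.333, so each call rests on the spread estimated over all genes.

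**Figure D1:**
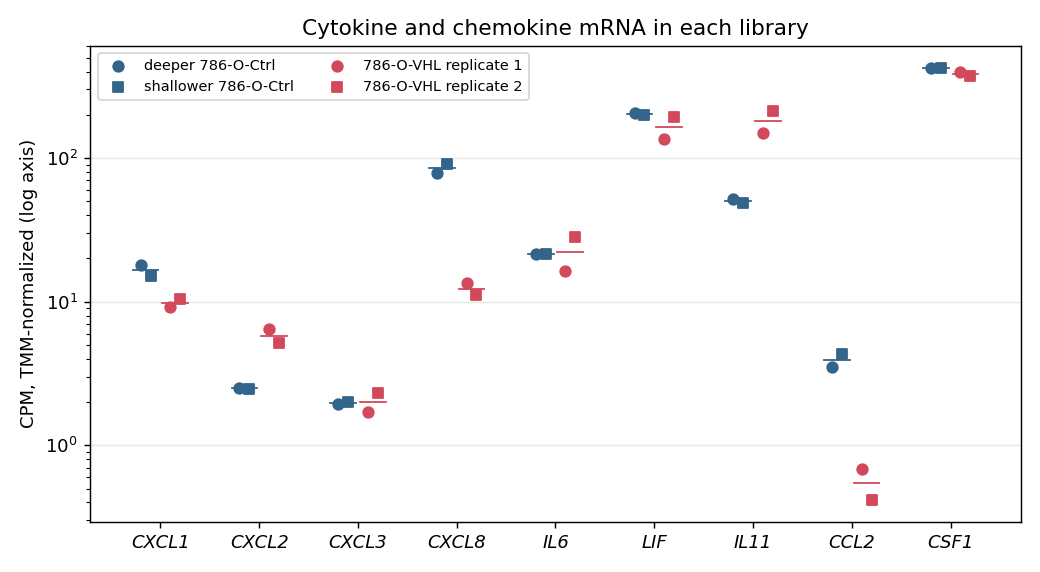
CPM of the 9 members (log axis) in each of the 4 libraries, with 1 point per library and a short line at the mean of each group. For CXCL8, CXCL1, CCL2, LIF and CSF1 both 786-O-VHL libraries lie below both 786-O-Ctrl libraries, for IL11 and CXCL2 they lie above, and for CXCL3 and IL6 the groups overlap.

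**Figure D2:**
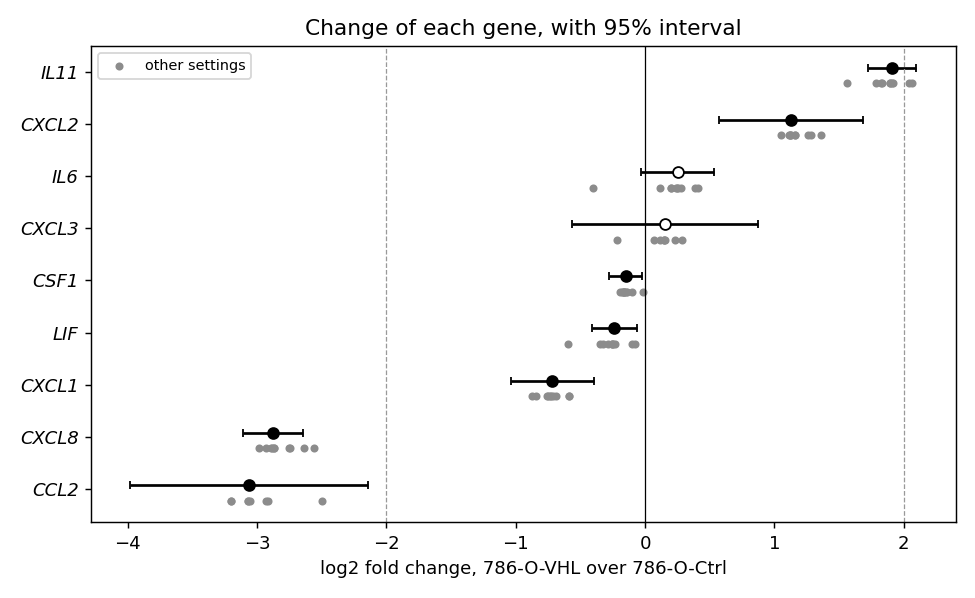
Log2 fold change of each member, 786-O-VHL over 786-O-Ctrl, with its 95% confidence interval from edgeR's quasi-likelihood fit (n = 2 libraries a group). Filled circles passed FDR < 0.05, open circles did not, grey points under each gene are the alternatives, and dashed lines mark 4-fold. CXCL8 and CCL2 lie below the dashed line of a 4-fold decrease, IL11 and CXCL2 lie above 0, and the intervals of IL6 and CXCL3 cross 0.

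Among the CXC chemokines, CXCL8 was the most abundant in 786-O-Ctrl. CXCL8 (ENSG00000169429.11, chr4:74606236-74609433 on the plus strand, GRCh37) was read at 78.1 CPM in the deeper and 91.4 CPM in the shallower 786-O-Ctrl library and at 13.6 and 11.05 CPM in 786-O-VHL replicates 1 and 2. Both 786-O-VHL libraries lay far below both controls, and the replicates of a group were close to each other. The mean in 786-O-Ctrl was 84.8 ± 9.43 CPM (SD, n = 2), against 12.3 ± 1.78 CPM in 786-O-VHL, with a log2 fold change of −2.88 (SE 0.113, 95% confidence interval −3.11 to −2.64, FDR = 1.91e-18 by edgeR's quasi-likelihood test with Benjamini-Hochberg adjustment). These values rest on 1645 and 1376 counts in 786-O-Ctrl and on 40 and 186 in 786-O-VHL.

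CXCL1, which signals through the receptor CXCR2, was lower in 786-O-VHL by a smaller amount. CXCL1 (ENSG00000163739.4, chr4:74735110-74737025, plus strand) was read at 18.0 and 15.1 CPM in 786-O-Ctrl and at 9.16 and 10.4 CPM in 786-O-VHL. The groups did not overlap, and the means were 16.6 ± 2.09 and 9.78 ± 0.872 CPM (SD, n = 2 each). The log2 fold change was −0.72 (SE 0.156, 95% confidence interval −1.04 to −0.40, FDR = 0.000229 by edgeR's quasi-likelihood test with Benjamini-Hochberg adjustment), or 1.64-fold lower.

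CXCL2, a paralog of CXCL1 with the same receptor, moved the other way. CXCL2 (ENSG00000081041.9, chr4:74962757-74964913, minus strand) was read at 2.52 and 2.46 CPM in 786-O-Ctrl and at 6.45 and 5.17 CPM in 786-O-VHL. Both 786-O-VHL libraries were higher than both controls, on 19 and 87 counts against 53 and 37. The log2 fold change was 1.13 (SE 0.271, 95% confidence interval 0.57 to 1.68, FDR = 0.000662 by edgeR's quasi-likelihood test with Benjamini-Hochberg adjustment).

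CXCL3 was the least abundant member of the cluster in 786-O-VHL. CXCL3 (ENSG00000163734.4, chr4:74902306-74904524, minus strand) was read at 1.95 and 1.99 CPM in 786-O-Ctrl and at 1.70 and 2.32 CPM in 786-O-VHL. The controls lay between the 786-O-VHL libraries. With 5 and 39 counts in 786-O-VHL, the log2 fold change was 0.16 with a 95% confidence interval of −0.56 to 0.88 (FDR = 0.710 by edgeR's quasi-likelihood test with Benjamini-Hochberg adjustment), so neither a modest rise nor a modest fall could be seen at this depth.

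CXCL1, CXCL2 and CXCL3 share sequence, and reads could have been split between them in counting. Of the 50-base stretches of their exons, 5.33% of those of CXCL1, 10.1% of those of CXCL2 and 5.26% of those of CXCL3 also occur in another gene of the CXC group, and none of those of CXCL8. How such reads were counted was not stated in the sources used here. When the counts of the 3 were summed, the sum had a log2 fold change of −0.25 (FDR = 0.0871 by edgeR's quasi-likelihood test with Benjamini-Hochberg adjustment). CXCL1 holds most of these counts, so the sum is no measure of CXCL2 or CXCL3.

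The make-up of the group can be given as shares, whose exact (Clopper-Pearson) 95% intervals cover counting error only. CXCL1 took 80.2% (76.3% to 83.7%) and 77.2% (72.0% to 81.9%) of the counts on CXCL1, CXCL2 and CXCL3 in the deeper and shallower 786-O-Ctrl libraries, and 52.9% (38.5% to 67.1%) and 58.1% (52.3% to 63.8%) in 786-O-VHL replicates 1 and 2. CXCL2 took 11.2% (8.49% to 14.4%) and 12.6% (9.02% to 16.9%) in 786-O-Ctrl and 37.3% (24.1% to 51.9%) and 28.9% (23.8% to 34.4%) in 786-O-VHL. The intervals of the groups were apart for both genes. The share of CXCL3 was 8.65% and 10.2% in 786-O-Ctrl, against 9.80% and 13.0% in 786-O-VHL, with intervals that overlapped. With CXCL8 added, CXCL8 took 77.6% and 82.4% of the counts on the 4 genes in 786-O-Ctrl, against 43.96% and 38.2% in 786-O-VHL.

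**Figure D3:**
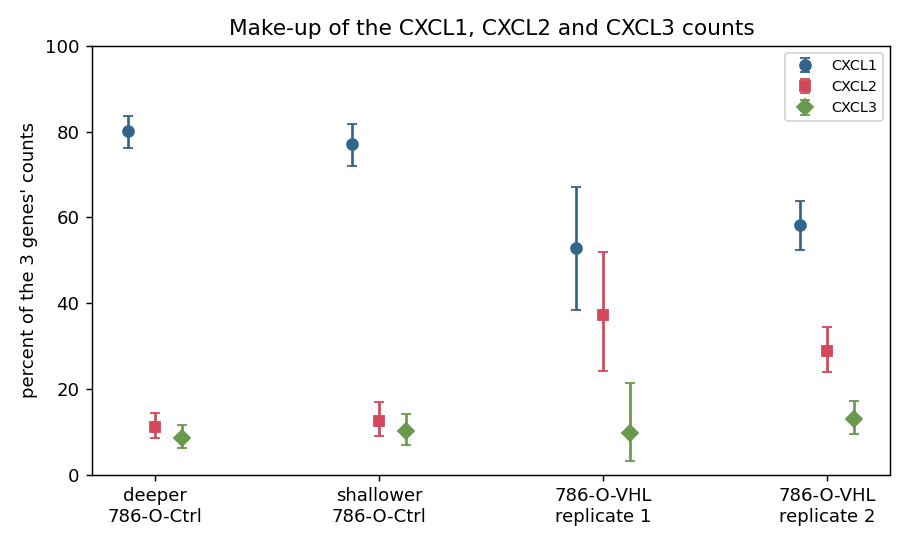
Percent of the counts on CXCL1, CXCL2 and CXCL3 that each gene took in each library, with exact 95% intervals that cover counting error only. CXCL1 took 80.2% and 77.2% in the 786-O-Ctrl libraries and 52.9% and 58.1% in 786-O-VHL replicates 1 and 2, and the CXCL2 points lie higher in 786-O-VHL.

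These 4 genes lie within 358.7 kb of chromosome 4 (chr4:74606236-74964913, GRCh37). The decreases of CXCL8 and CXCL1 and the increase of CXCL2 thus fell in the same stretch. Of the genes tested, CXCL5 and CXCL3 lie between CXCL1 and CXCL2. CXCL5, a further CXCR2 ligand that lies between CXCL1 and CXCL3, was read at 32.4 and 35.1 CPM in 786-O-Ctrl and at 40.4 and 41.8 CPM in 786-O-VHL, with a log2 fold change of 0.30 (SE 0.0951, FDR = 0.00722 by edgeR's quasi-likelihood test with Benjamini-Hochberg adjustment). That call was lost in 4 of 10 alternatives, DESeq2 among them. MTHFD2L, next to CXCL2 at 373.7 kb from CXCL8, had a log2 fold change of 0.19 and was not called (FDR = 0.371 by the same edgeR test with Benjamini-Hochberg adjustment). Farther along, the EGFR ligands EREG, AREG and BTC, at 624.6, 704.6 and 1064 kb from CXCL8, were higher in 786-O-VHL, by 1.94, 3.29 and 4.32 on the log2 scale. On the other side of CXCL8, RASSF6 was the nearest gene tested, and it was higher by 2.31 on the log2 scale. Beyond it, COX18 at 0.52 was called higher (lost in 1 of 10 alternatives) and ANKRD17 at −0.21 was called lower (lost in 4 of 10), so called neighbors too lay in both directions. These are all the tested genes in the stretch examined, which was chosen by position.

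**Figure D4:**
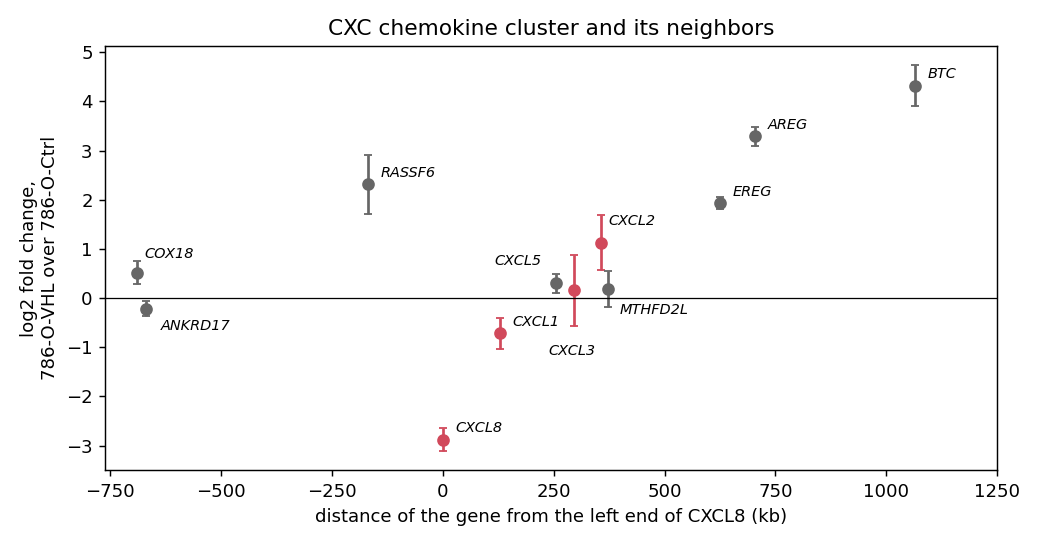
Log2 fold change, 786-O-VHL over 786-O-Ctrl, with its 95% confidence interval, of the tested genes around the CXC cluster against their distance from CXCL8 in kb. Members are in red and neighbors in grey, and CXCL8 at −2.88 lies lowest while AREG at 3.29 and BTC at 4.32 lie highest.

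Of the CC chemokines, CCL2 was near the limit of detection in 786-O-VHL. CCL2 (ENSG00000108691.9, chr17:32582293-32584227, plus strand), also known as MCP-1, was read at 3.51 and 4.32 CPM in 786-O-Ctrl and at 0.678 and 0.416 CPM in 786-O-VHL. Both 786-O-VHL libraries lay well below both controls, on 2 and 7 counts against 74 and 65. The log2 fold change was −3.06 (SE 0.449, 95% confidence interval −3.98 to −2.14, FDR = 9.82e-07 by edgeR's quasi-likelihood test with Benjamini-Hochberg adjustment). Since 786-O-VHL held 9 counts in all against 139, the ratio of 786-O-Ctrl to 786-O-VHL was also computed from the summed counts, and was 8.46 with an exact counting interval of 4.33 to 18.9. Without 786-O-VHL replicate 2 the adjusted p of the same edgeR test was 0.0123, so CCL2 then missed the stricter threshold. The 2 counts in 786-O-VHL replicate 1 allow a level between 0.0822 and 2.45 CPM in that library, whose upper end is below both controls.

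Of the gp130 cytokines, IL11 rose, LIF fell slightly and IL6 was not called. IL11 (ENSG00000095752.7, chr19:55875750-55881831, minus strand), known for its part in bone turnover and fibrosis, was read at 51.8 and 48.9 CPM in 786-O-Ctrl and at 149.9 and 211 CPM in 786-O-VHL. The lower of the 786-O-VHL libraries was far above both controls, although the 786-O-VHL replicates differed by 1.41 times. The mean in 786-O-Ctrl was 50.3 ± 2.01 CPM (SD, n = 2), against 180.4 ± 43.0 CPM in 786-O-VHL, with a log2 fold change of 1.91 (SE 0.0918, 95% confidence interval 1.72 to 2.10, FDR = 1.49e-16 by edgeR's quasi-likelihood test with Benjamini-Hochberg adjustment). IL11 was thus just under the 4-fold threshold, and it passed without 786-O-VHL replicate 1 (2.06 on the log2 scale) and also with library totals in place of TMM.

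LIF (ENSG00000128342.5, chr22:30636442-30642748, minus strand), named for its inhibition of leukemia cells, was read at 205 and 200.3 CPM in 786-O-Ctrl and at 135 and 192 CPM in 786-O-VHL. The groups did not overlap, but 786-O-VHL replicate 2 lay close to the controls and only replicate 1 lay clearly below them. The log2 fold change was −0.24 (SE 0.0863, 95% confidence interval −0.41 to −0.06, FDR = 0.0179 by edgeR's quasi-likelihood test with Benjamini-Hochberg adjustment). Without 786-O-VHL replicate 1 it was −0.08 and no longer called, and without replicate 2 it was −0.59, so its size rested on 1 library. DESeq2 did not call LIF (adjusted p = 0.318).

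IL6 (ENSG00000136244.12, chr7:22765503-22771621, plus strand), an inducer of the acute phase response, was read at 21.4 CPM in both 786-O-Ctrl libraries and at 16.3 and 28.4 CPM in 786-O-VHL replicates 1 and 2. The replicates of 786-O-VHL lay on either side of the controls and differed by 1.74 times. The log2 fold change was 0.25 (SE 0.137, 95% confidence interval −0.03 to 0.53, FDR = 0.107 by edgeR's quasi-likelihood test with Benjamini-Hochberg adjustment). It became 0.41 and was called without 786-O-VHL replicate 1 (FDR = 0.00187), and it turned to −0.40 without replicate 2 (FDR = 0.124, not called), so 1 library decided its direction. In the GRCh37 annotation used here, 2 genes on the opposite strand overlap IL6 and 2 overlap LIF, and without strand in the counting their reads could not be told apart.

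IL11 changed its place among the 3 gp130 cytokines. Of the counts on IL6, LIF and IL11, it took 18.6% (95% interval 17.6% to 19.6%) and 18.1% (16.9% to 19.3%) in the 786-O-Ctrl libraries and 49.8% (46.4% to 53.1%) and 48.9% (47.7% to 50.01%) in the 786-O-VHL libraries. These shares were close between replicates of a group even where the levels of each gene in CPM differed between the 786-O-VHL replicates.

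CSF1 was the most abundant member. CSF1 (ENSG00000184371.14, chr1:110452864-110473614, plus strand), the growth factor that macrophages need for survival, was read at 426 and 421 CPM in 786-O-Ctrl and at 397 and 371 CPM in 786-O-VHL. The groups did not overlap, but the difference was small, with means of 423 ± 3.96 and 384 ± 17.9 CPM (SD, n = 2 each). The log2 fold change was −0.15 (SE 0.0619, 95% confidence interval −0.28 to −0.02, FDR = 0.0366 by edgeR's quasi-likelihood test with Benjamini-Hochberg adjustment), or 9.83% lower. The call was lost in 5 of 10 alternatives, and with library totals in place of TMM the log2 fold change was −0.02.

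Levels of different genes were compared per kilobase of exon (CPM per kb of the union of annotated exons). In 786-O-Ctrl the order of the level per kb was CSF1 at 80.8, LIF at 52.4, CXCL8 at 32.8, IL11 at 18.8, CXCL1 at 12.2, IL6 at 4.95, CCL2 at 2.02, CXCL2 at 1.78 and CXCL3 at 0.888. Only CCL2, at 1.82 to 2.23, and CXCL2, at 1.76 to 1.80, were close neighbors there. Their libraries did not overlap, but on 37 to 74 counts each the order of CCL2 and CXCL2 is not settled. In 786-O-VHL the order of the level per kb was CSF1 at 73.3, IL11 at 67.4, LIF at 42.3, CXCL1 at 7.18, IL6 at 5.17, CXCL8 at 4.76, CXCL2 at 4.15, CXCL3 at 0.904 and CCL2 at 0.283. IL11 (56.0 to 78.7) overlapped CSF1 (70.9 to 75.7) there. IL6 (3.77 to 6.57) overlapped CXCL8 (4.27 to 5.24) and CXCL2 (3.70 to 4.61), and CXCL8 and CXCL2 overlapped each other. IL11 thus moved from the fourth place to the second, and CXCL8 from the third to the sixth, next to neighbors it could not be told apart from.

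The receptor chains of the members were largely those of the gp130 cytokines. Of 10 receptor genes, 5 were in the table, and CXCR1, CXCR2, ACKR1, CCR2 and CCR6 had no row. Of the 5 tested, 1 rose, 1 fell and 3 were not called, where 32.6% of all genes tested were higher and 31.9% lower. The median log2 fold change was −0.06, beside 0.02 over all genes tested. CSF1R, the receptor of CSF1, was read at 13.5 and 13.6 CPM in 786-O-Ctrl and at 3.39 and 2.49 CPM in 786-O-VHL, with a log2 fold change of −2.35 (SE 0.219, FDR = 2.45e-10 by edgeR's quasi-likelihood test with Benjamini-Hochberg adjustment). The IL6 binding chain IL6R was read at 3.61 and 3.72 CPM in 786-O-Ctrl and at 5.43 and 8.14 CPM in 786-O-VHL, with a log2 fold change of 1.04 (SE 0.236, FDR = 0.000376 by the same edgeR test with Benjamini-Hochberg adjustment), which was lost without 786-O-VHL replicate 2 (0.56, FDR = 0.303). The shared chain IL6ST had a log2 fold change of 0.16 and missed the threshold (FDR = 0.0513), and it passed in 3 of 10 alternatives. LIFR at −0.07 and IL11RA at −0.06 were not called.

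Among 35 other secreted ligands of the same families, 20 were in the table and 17 were tested, of which 8 rose, 5 fell and 4 were not called. Of all genes tested, 32.6% were higher and 31.9% lower. The median log2 fold change of the ligands was 0.45, beside 0.02 over all genes tested. The largest rises were those of TSLP (3.13), which acts on dendritic cells, and of the membrane-tethered chemokines CXCL16 (2.99) and CX3CL1 (2.80), all on the log2 scale. TSLP differed widely between the 786-O-Ctrl libraries, at 0.237 and 1.73 CPM, but both lay below the 786-O-VHL libraries at 12.5 and 6.12 CPM. Its log2 fold change was 2.20 without the deeper 786-O-Ctrl library, 5.04 without the shallower one and 3.82 without 786-O-VHL replicate 2. That of CXCL16 was 2.44 without the deeper and 3.63 without the shallower 786-O-Ctrl library. That of CX3CL1 stayed between 2.74 and 2.90 with any library left out. Without 786-O-VHL replicate 1, TSLP was at 2.80, CXCL16 at 2.93 and CX3CL1 at 2.75. The order of these genes thus depended on which library was left out. CX3CL1 was read at 11.9 and 10.7 CPM in 786-O-Ctrl and at 85.5 and 76.9 CPM in 786-O-VHL. The largest decreases were those of CSF2 (−2.91), which encodes GM-CSF, of the eosinophil attractant CCL26 (−1.92) and of TNFSF10 (−1.42), which encodes TRAIL. CSF2 was read at 5.65 and 5.98 CPM in 786-O-Ctrl and, on 3 and 12 counts, at 1.02 and 0.713 CPM in 786-O-VHL. CCL26 was no longer called without 786-O-VHL replicate 2 (−1.02, FDR = 0.257). As among the members, ligands of this list were called in both directions.

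**Figure D5:**
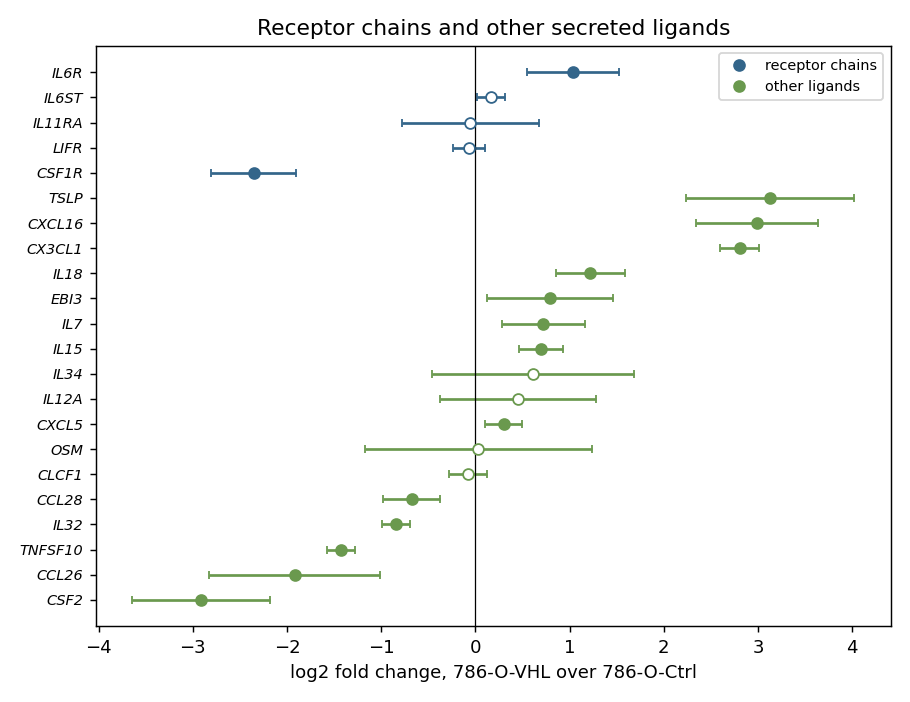
Log2 fold change, 786-O-VHL over 786-O-Ctrl, with its 95% confidence interval, of the 5 receptor chains (blue) and the 17 other ligands (green) tested, with filled circles for FDR < 0.05 by edgeR's quasi-likelihood test. CSF1R at −2.35 and IL6R at 1.04 are the receptor chains called, and the other ligands run from CSF2 at −2.91 to TSLP at 3.13.

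Of 20 genes of the receptors and adaptors upstream of NF-κB, 19 were tested, of which 5 rose, 7 fell and 7 were not called. Over all genes tested, 32.6% were higher and 31.9% lower. The largest rises were those of TLR3 (1.41), the sensor of double-stranded RNA, and of the IL-1 receptor chains IL1R1 (0.74) and IL1RAP (0.61), all on the log2 scale. The largest decreases were those of TLR2 (−0.89), which rested on 2 and 44 counts in 786-O-VHL and was lost in 4 of 9 alternatives (−2.61 without 786-O-VHL replicate 2), of the kinase IRAK1 (−0.72) and of the kinase RIPK1 (−0.58).

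Of 21 transcription factors, all tested, 10 rose, 4 fell and 7 were not called, where 32.6% of all genes tested were higher and 31.9% lower. The median log2 fold change was 0.62, beside 0.02 over all genes tested. The largest rises were those of CEBPA (2.45), CEBPB (1.49), a factor known to act at the IL6 and CXCL8 promoters, and JUNB (1.38), an AP-1 subunit. CEBPA rested on 9 and 7 counts in 786-O-Ctrl and on 7 and 42 in 786-O-VHL, and only 8 alternatives tested it. CEBPB was read at 89.7 and 100.1 CPM in 786-O-Ctrl and at 254 and 272 CPM in 786-O-VHL. The largest decreases were those of the NF-κB subunits NFKB1 (−0.51), NFKB2 (−0.37) and RELA (−0.30). The subunits RELB (−0.02) and REL (−0.34) were not called, and NFKBIZ (0.62) was among the genes that rose. RELA was read at 143 and 145 CPM in 786-O-Ctrl and at 119 and 116 CPM in 786-O-VHL. These are mRNA levels, and the activity of the factors was not measured.

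Of 13 genes for proteins that bind cytokine mRNAs and set their decay, 4 rose, 4 fell and 5 were not called. Rises were largest for ZFP36L1 (1.11), ZFP36 (0.94) and TIA1 (0.49), all on the log2 scale. Decreases were largest for HNRNPD (−0.96), KHSRP (−0.82) and ELAVL1 (−0.63), which encodes HuR. The decay of the mRNAs was not measured. Of 14 genes of signaling downstream of gp130, 6 rose, 3 fell and 5 were not called. The feedback inhibitors SOCS1 (1.84) and SOCS3 (1.27), the latter a STAT3 target, and the kinase JAK2 (1.08) rose, and PIAS3 (−0.60) and TYK2 (−0.25) were among those that fell, the latter a call lost in 2 of 10 alternatives. SOCS3 was read at 23.3 and 27.6 CPM in 786-O-Ctrl and at 58.7 and 61.9 CPM in 786-O-VHL. In each of these lists genes were called in both directions, and the share of all genes called was 64.5%.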

How the data were processed

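The members and lists were chosen with earlier results of these data known. The authors deposited raw counts per gene for 4 total RNA libraries made with a TruSeq kit. The submitters' processing notes name CASAVA, STAR and hg19. How reads were counted on genes, with or without strand, and on which annotation, is not given in the sources used here. Library totals ran from 2807779 to 22141263 counts, and replicates differed by more than sampling noise (chi-square per degree of freedom 2.25 and 2.76).

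Counts were tested in R 4.3.3 with edgeR 4.0.16 (filterByExpr with a minimum count of 10, 12335 genes kept and 577 removed, TMM, quasi-likelihood test with the group as only term, Benjamini-Hochberg over all genes). The thresholds were FDR < 0.05, and more than 4-fold with FDR < 0.01. The members were all named, with at most 3 genes per direction of each companion list and every receptor present, and 1 gene this rule names is not reported here. COX18, ANKRD17, CXCL5, RASSF6, MTHFD2L, EREG, AREG and BTC were named by position with values seen. RELB, REL and NFKBIZ were named outside the rule, also with values seen. Coordinates came from GENCODE on GRCh37 and promoters from RefSeq, which matched 7 of 10 members. Intervals of counts cover counting error only. On counts simulated for this comparison over 12335 genes, edgeR recovered 100 of 100 genes changed 8-fold and 98 of 100 changed 2-fold, with 13 false calls. DESeq2 recovered 100 and 84, with 0 false calls. The simulation gave every gene the same spread (a coefficient of variation of 4.31%) and changed only genes with more than 100 counts in all. These rates need not hold for genes such as IL6, whose 786-O-VHL replicates differed by 1.74 times. Alternatives were DESeq2 1.42.0, RLE size factors, library totals, no filter, at least 10 counts in every library, thinning to the shallowest library, summing CXCL1 to CXCL3 and leaving out each library.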

Additional observations from a re-analysis of the deposited data

How the results depend on the processing

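No paired analysis was possible because both 786-O-Ctrl columns carry the same replicate number. Of 86 values of the members under the alternatives, 74 kept their direction and side of the threshold, 8 lost the call, 2 gained it and 2 turned direction, the sum of CXCL1, CXCL2 and CXCL3 counted apart. CXCL8, CXCL1, CXCL2 and IL11 kept their calls in each of 10 alternatives other than that sum, over log2 fold changes of −2.98 to −2.56, −0.87 to −0.58, 1.05 to 1.36 and 1.57 to 2.06, and CCL2 in all 8 that tested it, over −3.20 to −2.50. With CXCL1, CXCL2 and CXCL3 summed, the sum, mostly CXCL1 counts, was at −0.25 and not called. Without 786-O-VHL replicate 2, the values of CXCL3 and IL6 turned to −0.22 and −0.40, neither called, and with each library left out they ran up to 0.23 and 0.41. LIF was not called by DESeq2 (−0.32), with library totals (−0.10) or without 786-O-VHL replicate 1 (−0.08), and its value without replicate 2 was −0.59. CSF1 was not called by DESeq2 (−0.17), with library totals (−0.02), without either 786-O-Ctrl library (−0.14 and −0.16) or without 786-O-VHL replicate 2 (−0.10). IL6 was called as higher with library totals (0.38) and without 786-O-VHL replicate 1 (0.41). The uncalled values of LIFR (0.066 with library totals) and IL11RA (0.068 by DESeq2, 0.077 with library totals, −0.26 to 0.57 with a library left out) turned direction.

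Members called lower were 3 by DESeq2 and 3 with library totals, against 5. Members past 4-fold were 1 with at least 10 counts in every library and 1 after thinning, which left CCL2 and CXCL3 untested, against 2, and 1 to 3 with a library left out, the 1 without 786-O-VHL replicate 2. Receptors higher were 2 with library totals and 2 with at least 10 counts in every library, against 1. Other ligands higher were 5 by DESeq2, 5 after thinning and 5 to 7 with a library left out, against 8, and other ligands lower were 3 with at least 10 counts in every library and 3 to 5 with a library left out, against 5. The lowest values came without 786-O-VHL replicate 2, for other ligands higher also without the deeper 786-O-Ctrl library. Over all genes, 232 passed 4-fold with at least 10 counts in every library and 346 after thinning, against 550. Library totals moved the median log2 fold change of all genes from 0.02 to 0.15 and the share of calls that were higher from 50.5% to 62.1%. The cause of these changes was not tested, except where fewer genes were tested. The depth of 786-O-VHL replicate 1 limits CCL2 and CXCL3.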
